A study of Mus musculus with 4 samples.

Results

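RNA-seq counts of embryonic mouse ovaries were compared between the libraries numbered replicate 2 and those numbered replicate 1, within each genotype. All 4 libraries of the series entered the comparison: mutant replicate 2 and wild-type replicate 2 on one side, mutant replicate 1 and wild-type replicate 1 on the other, with the genotype as a block, and the mutant effect itself was not the subject. Every library was made from total RNA of developing ovaries on embryonic day E13.5. Mutant ovaries overexpressed Sall1, a zinc-finger transcription factor, from a bacterial artificial chromosome in which the promoter and regulatory elements of Wt1, active in gonadal somatic cells, drive the Sall1 coding sequence. The transgene was inserted with piggyBac into female embryonic stem cells, and mice were made from these by morula aggregation. The study describes the wild-type samples both as littermate controls and as gonads of CD1 mice, and their column names carry the tag WtB6, so their strain is not settled here. The mutant columns carry the tag MutSall1N2. The female stem cells that received the transgene were derived from C57BL/6J blastocysts. A general description of the transgenic work also names a hybrid background, and the labels of the mutant ovaries name no stem cell background. The labels give the replicate number only and do not say whether it stands for a litter, a dissection, an animal or a pool. In the count table, the columns of equal replicate number carry neighbouring library numbers. P-values set the replicate difference against how far the mutant pair and the wild-type pair disagree, with 1 library per genotype and number. They do not measure the spread between samples of the same condition, and the disagreement may be technical in part. The test draws the disagreement of each gene toward a trend over all genes. A small p or SE therefore does not show that the 2 pairs of a gene fell or rose by the same amount.

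At E13.5 the mouse ovary holds germ cells that are leaving the pluripotent state and starting meiosis, which the retinoic acid-responsive gene Stra8 triggers. Around them lie pre-granulosa cells marked by Foxl2 and interstitial stroma marked by Pdgfra and Nr2f2, with vessels that carry nucleated red cells, which use embryonic globins, and macrophages. The gonad is dissected from the mesonephros and lies near the adrenal, the gut, the liver and the body wall, whose muscle is then forming fibres. Skeletal muscle is made under Myod1 and Myog and fills with sarcomeric proteins such as actins, myosins and troponins, while fetal liver secretes albumin and alpha-fetoprotein.

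The comparison turns on a few genes that define these tissues, and the promoters of 5 of them are shown so that the windows upstream of the moving genes can be seen next to their values. All 5 were matched by symbol in RefSeq (GRCm38.p6). Each window runs 5′ to 3′ on the strand of the gene, from 250 bases before to 50 bases after the annotated start, and capitals mark every match, on either strand, to TATAAA (the TATA box), CCAAT (bound by NF-Y), CCACCC (bound by Krüppel-like factors), AGATAA (bound by GATA factors) or CAGCTG (an E-box that myogenic factors bind). The windows lie at chr11:32276350-32276649 (plus strand, Hba-x), chr7:103853158-103853457 (minus strand, Hbb-y), chr8:123894726-123895025 (minus strand, Acta1), chr5:90490464-90490763 (plus strand, Afp) and chr6:34920698-34920997 (plus strand, Stra8).
Hba-x: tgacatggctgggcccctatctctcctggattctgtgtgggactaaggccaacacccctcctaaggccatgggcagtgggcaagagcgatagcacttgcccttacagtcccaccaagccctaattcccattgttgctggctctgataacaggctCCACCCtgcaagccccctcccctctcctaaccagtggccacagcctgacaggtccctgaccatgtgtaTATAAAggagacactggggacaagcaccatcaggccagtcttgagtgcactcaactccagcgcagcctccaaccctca
Hbb-y: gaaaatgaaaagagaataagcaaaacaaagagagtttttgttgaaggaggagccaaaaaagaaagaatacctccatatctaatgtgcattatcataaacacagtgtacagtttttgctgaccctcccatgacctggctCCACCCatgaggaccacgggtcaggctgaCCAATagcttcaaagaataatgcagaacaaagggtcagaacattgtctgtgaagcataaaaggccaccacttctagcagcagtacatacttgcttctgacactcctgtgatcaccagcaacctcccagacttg
Acta1: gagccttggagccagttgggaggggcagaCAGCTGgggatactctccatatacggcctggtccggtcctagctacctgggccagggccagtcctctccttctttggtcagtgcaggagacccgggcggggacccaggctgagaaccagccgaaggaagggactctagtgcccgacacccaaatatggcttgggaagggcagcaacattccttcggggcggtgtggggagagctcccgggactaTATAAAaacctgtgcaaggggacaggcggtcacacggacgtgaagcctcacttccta
Afp: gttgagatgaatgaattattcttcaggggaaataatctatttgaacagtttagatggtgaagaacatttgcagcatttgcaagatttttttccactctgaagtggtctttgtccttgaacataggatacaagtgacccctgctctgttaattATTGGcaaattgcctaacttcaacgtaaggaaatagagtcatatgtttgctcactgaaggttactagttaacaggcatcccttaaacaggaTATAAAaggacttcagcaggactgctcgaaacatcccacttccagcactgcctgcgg
Stra8: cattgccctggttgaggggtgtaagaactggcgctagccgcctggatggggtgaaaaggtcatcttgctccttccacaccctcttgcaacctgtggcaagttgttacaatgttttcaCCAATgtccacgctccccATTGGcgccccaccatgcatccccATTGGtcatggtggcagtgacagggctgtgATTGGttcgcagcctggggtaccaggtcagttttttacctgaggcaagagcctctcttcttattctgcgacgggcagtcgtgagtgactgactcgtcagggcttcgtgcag
Among all 32851 promoter windows of the same length, TATAAA was found in 13.6%, CCAAT in 37.4%, CCACCC in 31.5%, AGATAA in 11.2% and CAGCTG in 16.3%. Both globin windows held CCACCC, and Hba-x also held TATAAA at 28 bases before the start. The Acta1 window held CAGCTG once, and the Stra8 window held CCAAT 4 times. Matches did not overlap in these windows, no AGATAA lay in any of them, and a match is a description of letters only.

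The counts summed to between 11036313 and 17869840 per library, and 15442 of 34682 listed genes passed the filter on low counts. Levels are given as CPM, counts scaled to library size, and a count of 0 allows a level of up to 3 counts, which is 0.17 to 0.272 CPM depending on the library. Sall1 had 1243 and 1445 counts in mutant replicates 1 and 2 against 279 and 223 in wild-type replicates 1 and 2, a log2 difference of 2.86 (SE 0.11, adjusted p = 8.02e-10 in edgeR with the replicate number in the fit). Without the replicate block the same Sall1 difference was 2.85 (SE 0.16, adjusted p = 0.00823). Where 4 values stand in a row, they are those of mutant replicates 1 and 2 and then wild-type replicates 1 and 2. Xist had 16223 to 28398 counts, and no count fell on Uty, Kdm5d, Eif2s3y or Ddx3y of the Y chromosome. The first principal component of log2 CPM took 54.3% of the variance and separated the replicate numbers, at -19.2 and -33.2 for replicate 1 of mutant and wild type and 35.2 and 17.2 for replicate 2. The second took 27.6% and separated the genotypes.

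Between replicate numbers, 662 of 15442 genes passed the test (edgeR quasi-likelihood test, Benjamini-Hochberg adjusted p under 0.05), which is 4.29% of the genes tested. Of these, 241 (1.56%) were higher and 421 (2.73%) lower in replicate 2. Lower genes also moved further: 119 fell by at least 2 on the log2 scale, against 22 that rose by as much, and 2682 genes passed an unadjusted p under 0.05. All 662 moved the same way in the mutant pair and in the wild-type pair, which the test with 1 residual degree of freedom favours, against 9618 of the 15442 tested (62.3%). Among genes tested, 45.4% did not overlap between the replicate numbers, and 630 of the called genes did not. DESeq2 with the same terms called 44 higher and 81 lower, 0.804% of the 15546 genes it gave an adjusted p, of which 124 were also called by edgeR. Without the genotype block 3 genes were higher and 1 lower, with 0 calls among the blood, muscle, stroma and germ cell genes. Leaving out a library gave 145 calls without mutant replicate 1, of which 118 were among the 662, 7 without mutant replicate 2, 0 without wild-type replicate 1 and 9 without wild-type replicate 2, in fits without the genotype term. Whether a gene differed more in one genotype could not be tested with 1 library per genotype and number. In bulk RNA, fewer cells of a type and less RNA per cell cannot be told apart.

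**Figure D1:**
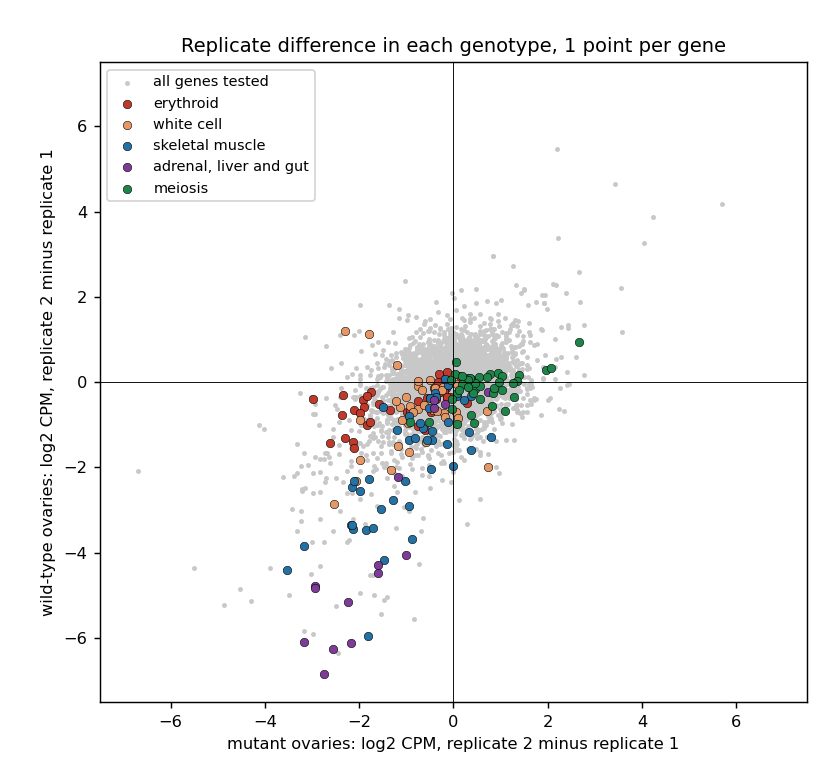
Log2 CPM difference, replicate 2 minus replicate 1, in the mutant pair (x axis) against the wild-type pair (y axis) for 15442 genes, with members of 5 gene lists coloured. Erythroid, white cell, skeletal muscle and liver genes lie mostly at the lower left, where both genotypes were lower in replicate 2, and meiosis genes spread to the right along the mutant axis.

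Blood genes were lower in replicate 2 in both genotypes. Of 84 blood genes tested, 22 (26.2%) fell and 0 rose, against 2.73% and 1.56% of all genes tested, and the median log2 difference was -0.56, against -0.01 for all genes. In the mutant pair the median was -0.65 and in the wild-type pair -0.50. Against 5030 of all 15442 genes tested, 66 of the 84 were lower in both pairs. Their summed level was 4405 and 1799 CPM in mutant replicates 1 and 2, and 5039 and 2885 CPM in wild-type replicates 1 and 2, lower in replicate 2 of each genotype. The globin gene Hbb-y alone gave 2762, 774, 3004 and 1488 CPM of these sums, and the white cell genes together 273, 145, 350 and 172 CPM. In DESeq2, 5 of the 84 fell. Leaving out 1 library left 8 calls without mutant replicate 1, 1 without mutant replicate 2, 0 without wild-type replicate 1 and 4 without wild-type replicate 2.

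Among red cell genes, 13 of 44 tested fell (29.5%, against 2.73% of all genes), with a median log2 difference of -0.59. Hbb-y, the embryonic beta-like globin at chr7:111000259-111001754 (NCBIM37), had 2762 and 774 CPM in mutant replicates 1 and 2 and 3004 and 1488 CPM in wild-type replicates 1 and 2. Both libraries of replicate 2 lay below both of replicate 1 (45.4% of all genes tested did not overlap), with a log2 difference of -1.42 (SE 0.14, adjusted p = 1.73e-05). Hba-x, the embryonic alpha-like globin (chr11:32176400-32178116), had 311 and 71.4 CPM in the mutants and 356 and 134 CPM in the wild types, for replicates 1 and 2. It fell by 1.75 on the log2 scale (SE 0.12, adjusted p = 4.76e-07). Alas2, the first enzyme of haem synthesis in red cells, went from 71.8 to 16.5 CPM in mutants and from 87.4 to 29.7 CPM in wild types, a log2 difference of -1.81 (adjusted p = 4.76e-07).

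The anion exchanger gene Slc4a1 showed an uneven fall, from 45.6 to 12 CPM in mutants and from 78.3 to 58.2 CPM in wild types, so the replicate numbers overlapped. Its log2 difference was -1.05 (SE 0.22, adjusted p = 0.0117), and DESeq2 did not call it. Hbb-bh1, Ermap, Car2 and Bpgm also fell. Among the red cell transcription factors, Gfi1b, a transcriptional repressor that red cell maturation needs, fell. It had 12 and 1 counts in mutants and 43 and 15 counts in wild types (adjusted p = 0.0427). Tal1 (log2 -0.58, adjusted p = 0.0834), Nfe2 (log2 -0.40, adjusted p = 0.443) and Lmo2 (log2 -0.16, adjusted p = 0.677) were not called. Gata1, the master regulator of red cell genes, had 3.72 and 4.59 CPM in mutants and 7.56 and 5.33 CPM in wild types (log2 -0.16, adjusted p = 0.815), and Klf1, a globin gene activator, had 1.18, 0.532, 4.24 and 2.55 CPM in the same order (log2 -0.84, adjusted p = 0.238). The ratio of Hba-x to Hbb-y counts was 0.113 and 0.0923 in mutant replicates 1 and 2 and 0.119 and 0.0902 in wild-type replicates 1 and 2. Adult globin genes had 1, 0, 1 and 0 counts in mutant and wild-type replicates 1 and 2, in a table that also lists near-identical copies of them, so no ratio of embryonic to adult globin could be given.

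White cell genes fell as well, 9 of 40 tested (22.5%, against 2.73% of all genes), with a median of -0.55. Lyz2, the lysozyme of macrophages and granulocytes (chr10:116714390-116719377), had the smallest p of any gene tested. Its level was 55.9 and 9.57 CPM in mutant replicates 1 and 2 and 109 and 14.9 CPM in wild-type replicates 1 and 2. This is a log2 difference of -2.73 (SE 0.12, adjusted p = 8.08e-09), and Lyz1, a near-identical neighbour that can share reads with it, fell by 1.81. Itgam, an integrin of myeloid cells, fell from 5.63 to 1.33 CPM in mutants and from 10.3 to 2.83 CPM in wild types (adjusted p = 0.000441). The macrophage scavenger gene Mrc1, the complement gene C1qa, Lyve1, Cybb and the platelet gene Pf4 also fell, with log2 differences from -0.85 to -2.41.

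Csf1r, the macrophage growth factor receptor, had 27.9 and 16.6 CPM in mutants and 16.9 and 15.9 CPM in wild types (log2 -0.42, adjusted p = 0.18), and Ptprc, the common white cell surface protein, had 1.91, 3.19, 4.13 and 2.55 CPM, higher in replicate 2 of mutants and lower in that of wild types. Of 41 endothelial genes 0 passed in either direction in edgeR, against 4.29% of all genes (median 0.05), and Pecam1 stood at 166, 153, 160 and 156 CPM for mutant and wild-type replicates 1 and 2 (log2 -0.08, adjusted p = 0.688).

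**Figure D2:**
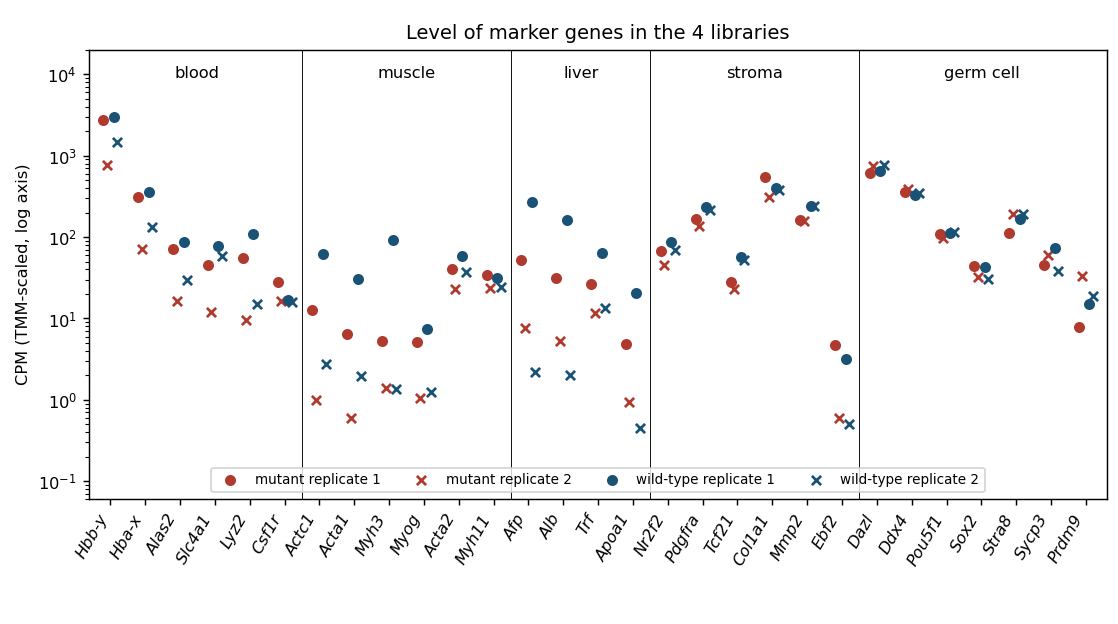
CPM of marker genes (log axis) in the 4 libraries, circles for replicate 1 and crosses for replicate 2, red for mutant and blue for wild type. Crosses lie below circles of the same colour for the globins, Lyz2, the sarcomere genes and the liver genes, while Pou5f1, Ddx4 and Mmp2 show little separation.

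Muscle genes fell in larger numbers. Of 69 tested, 27 (39.1%) fell and 0 rose, against 2.73% and 1.56% of all genes. The median log2 difference was -0.73, with -0.49 in the mutant pair and -0.80 in the wild-type pair. The fall lay mostly in skeletal muscle genes, of which 24 of 45 tested (53.3%) fell, with a median of -1.12. Against 5030 of all 15442 genes tested, 37 of the 45 were lower in both pairs. Their summed level was 432 and 348 CPM in mutants and 802 and 331 CPM in wild types. DESeq2 called 12 of the 69. Without mutant replicate 1 there were 25 calls, and without any other library 0.

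Actc1, the cardiac actin that embryonic skeletal muscle also uses (chr2:113873018-113879284), had 12.9 and 0.997 CPM in mutant replicates 1 and 2 and 61.3 and 2.78 CPM in wild-type replicates 1 and 2. Its log2 difference was -4.25 (SE 0.20, adjusted p = 8.36e-09). Acta1, the skeletal actin, went from 6.44 to 0.598 CPM in mutants and from 30.4 to 1.98 CPM in wild types (log2 -3.80, SE 0.24, adjusted p = 1.81e-07). Each replicate 2 library lay far below both libraries of replicate 1. Myh3, the embryonic myosin heavy chain, separated the genotypes more: it had 5.26 and 1.4 CPM in mutants, and 91.7 and 1.36 CPM in wild types, where it was highest of the 4 libraries in replicate 1. Its log2 difference was -4.94 (SE 0.48, adjusted p = 2.13e-05), with -1.82 in the mutant pair and -5.94 in the wild-type pair. DESeq2 did not call it.

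Myogenic regulators fell too. Myog, which drives myoblast fusion, went from 5.17 to 1.06 CPM in mutants and from 7.5 to 1.25 CPM in wild types (log2 -2.45, SE 0.31, adjusted p = 0.000236). Myod1, which commits cells to muscle, had 10 and 2 counts in mutants and 34 and 4 counts in wild types (adjusted p = 0.00888). Pax7, the marker of muscle progenitors, had 0, 1, 3 and 2 counts and was not tested. The troponin genes Tnnc1 and Tnnt2, the light chains Myl1 and Mylpf, and titin (Ttn) fell, with log2 differences from -2.09 to -3.42. Of the 70 skeletal muscle genes found in the table, 25 were too low to be tested, among them Chrng with 3, 0, 43 and 0 counts and Tnni2 with 4, 3, 56 and 2 counts.

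Smooth muscle genes moved less. Of 25 tested, 4 (16%, against 2.73% of all genes) fell, Acta2, Cnn2, Des and Myh11, with a list median of -0.14. Acta2, the smooth muscle actin, had 40.6 and 22.7 CPM in mutants and 58.2 and 37.1 CPM in wild types (log2 -0.73, SE 0.11, adjusted p = 0.00101). Myh11, the smooth muscle myosin, had 34.6 and 23.4 CPM in mutants and 31.6 and 24.1 CPM in wild types (log2 -0.47, SE 0.12, adjusted p = 0.0345).

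**Figure D3:**
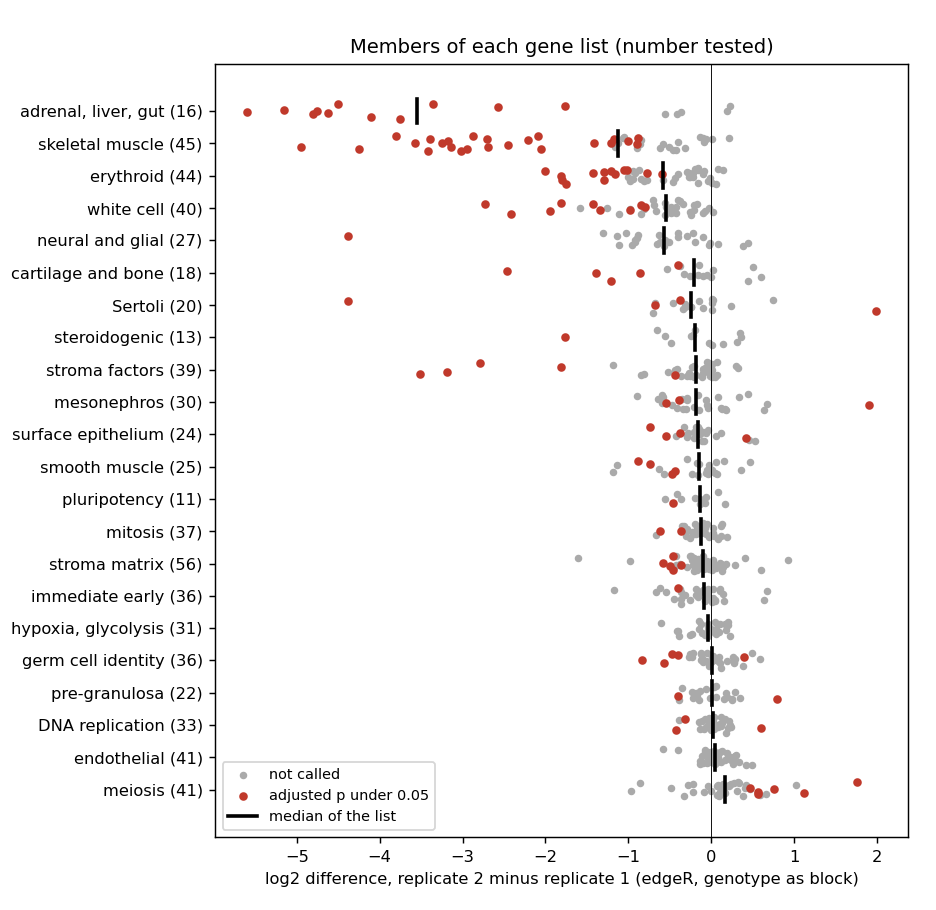
Log2 difference, replicate 2 minus replicate 1 (x axis), of every tested member of 22 gene lists, red where the adjusted p was under 0.05 and grey where not, with the list's median as a bar. The liver, skeletal muscle, erythroid, neural and glial, and white cell lists lie mostly to the left of 0. The endothelial, pre-granulosa and DNA replication lists lie around it.

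Liver genes had the lowest median of the lists. Of 16 adrenal, liver and gut genes tested, 11 (68.8%) fell and 0 rose, against 2.73% and 1.56% of all genes. The median was -3.55, and the 11 were all genes of liver secretory products. The summed level was 165 and 56 CPM in mutant replicates 1 and 2, and 624 and 49.1 CPM in wild-type replicates 1 and 2, so wild-type replicate 1 stood apart and the replicate 2 libraries were alike. The genes of gut (Cdx1, Cdx2, Vil1) and adrenal (Mc2r, Nr4a1) in this list were not called. Liver genes were lower in replicate 2 of both genotypes, as blood and muscle genes were, but the pairs differed in size. The list medians in the mutant and wild-type pairs were -1.60 and -4.38 here, -0.49 and -0.80 for muscle genes, and -0.65 and -0.50 for blood genes. The part of neighbouring tissue in those differences was not tested.

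Afp, the fetal alpha-fetoprotein (chr5:90919740-90937933), had 51.7 and 7.58 CPM in mutant replicates 1 and 2 and 268 and 2.21 CPM in wild-type replicates 1 and 2. Its log2 difference was -4.76 (SE 0.51, adjusted p = 5.29e-05), with -2.75 in the mutant pair and -6.84 in the wild-type pair. Alb, the serum albumin next to it on chromosome 5, had 31.8, 5.32, 165 and 2.04 CPM in the same order (log2 -4.50, SE 0.47, adjusted p = 3.95e-05). Both Afp and Alb lost their call in DESeq2, at 0.143 and 0.16 adjusted p. Trf, the iron carrier transferrin, also fell (log2 -1.77), and so did Apoa1, from 4.9 to 0.931 CPM in mutants and from 20.7 to 0.453 CPM in wild types.

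A placental transcript was counted in the replicate 1 libraries. Tpbpa, a trophoblast-specific protein gene, had 10 and 0 counts in mutant replicates 1 and 2 and 134 and 0 counts in wild-type replicates 1 and 2, at least 4.55-fold lower in the mutant pair and at least 45.8-fold lower in the wild-type pair, against a floor of 3 counts per library, and it was not called by DESeq2. Of 28 trophoblast genes, chosen after the values were seen, 5 and 0 had a count in mutant replicates 1 and 2 and 12 and 1 in wild-type replicates 1 and 2. In neural and glial genes, 1 of 27 fell (3.7%, near the 2.73% of all genes), Sox10 of neural crest cells, with 13, 0, 67 and 4 counts (adjusted p = 0.000581), beside a list median of -0.56. Cartilage and bone genes, 5 of 18 of which fell (27.8%, median -0.21), included the cartilage collagens Col2a1, Col9a1 and Col9a2, the phosphatase gene Alpl, which germ cells use too, and Pax1 at 9, 2, 16 and 3 counts. Col2a1, the main cartilage collagen, went from 18.7 to 7.58 CPM in mutants and from 13 to 4.65 CPM in wild types (log2 -1.39, SE 0.18, adjusted p = 0.000314). For each called gene named here, both libraries of replicate 2 lay below both of replicate 1. Among all genes tested, 45.4% did not overlap between the replicate numbers in either direction.

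Further genes with the smallest p among those lower in replicate 2 lay outside the lists. Prg4, the joint lubricant lubricin, had 148 and 5 counts in mutants and 518 and 12 counts in wild types (log2 -5.40, SE 0.26, adjusted p = 8.36e-09). The complement gene C4b had 99, 4, 318 and 9 counts (log2 -5.12, adjusted p = 1.12e-07), and the acute-phase gene Saa3 had 70, 3, 249 and 5 counts (adjusted p = 3.43e-07). Alox15, a lipoxygenase of macrophages, and Adh1, an alcohol dehydrogenase, fell by 3.63 and 2.33 on the log2 scale. Each of these was lower in both replicate 2 libraries than in either replicate 1 library, where 45.4% of all genes tested did not overlap in either direction.

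Stroma genes were moved little. Of 95 tested, 10 (10.5%) fell and 0 rose, against 2.73% of all genes lower, with a median of -0.10. The mutant pair had a median of -0.27 and the wild-type pair of -0.01. Their summed level was 12417 and 10401 CPM in mutants and 12372 and 12375 CPM in wild types, so the wild-type pair did not differ in sum. DESeq2 called 1 of the 95, and leaving out any library left 0.

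Of 39 stromal transcription factor genes, 5 (12.8%) fell, against 2.73% of all genes. Ebf2, a factor of mesenchymal progenitors, had 52 and 9 counts in mutants and 54 and 9 counts in wild types (log2 -2.79, SE 0.39, adjusted p = 0.000626). Nr2f2, the ovarian interstitial factor, had 67.7 and 44.8 CPM in mutants and 85.9 and 69.6 CPM in wild types (log2 -0.44, SE 0.10, adjusted p = 0.0223), and the replicate numbers overlapped between genotypes. Tbx18 and Mab21l2 fell too at low counts, Tbx18 from 42 to 24 in mutants and from 23 to 2 in wild types.

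In the 56 matrix genes, 5 (8.93%, against 2.73% of all genes) fell, Col1a1, Col5a1, Eln, Fbln2 and Postn, with log2 differences from -0.36 to -0.59. Col1a1, the bulk collagen of connective tissue, had 554 and 313 CPM in mutants and 405 and 378 CPM in wild types (adjusted p = 0.045). Col3a1, its partner in fibrils, had 1014 and 668 CPM in mutants and 937 and 1095 CPM in wild types (log2 -0.19, adjusted p = 0.512), lower in one pair and higher in the other. Beside Nr2f2 and Col1a1, which fell, other stroma markers were not called: Pdgfra had 168, 139, 233 and 217 CPM (log2 -0.19, adjusted p = 0.26), Tcf21 had a log2 difference of -0.21 (adjusted p = 0.351), Dcn of -0.42 (adjusted p = 0.192) and Mmp2 of -0.01 (adjusted p = 0.973).

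Germ cell genes did not move as a block. Of 88 tested, 7 (7.95%) rose and 5 (5.68%) fell, against 1.56% and 2.73% of all genes, with a median of 0.08. The median was 0.16 in the mutant pair and -0.05 in the wild-type pair. Their summed level was 6486 and 7947 CPM in mutants and 7166 and 6942 CPM in wild types, up in one genotype and down in the other. DESeq2 called 0 of the 88 in either direction, leaving out any library left 0, and 1 of the 7 rises passed with another normalization (relative log expression) and 1 with no filter on low counts.

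Among 36 identity genes, Stk31, a piRNA pathway kinase-like gene, rose, and Tdrd12, Tfap2c, Dppa5a and Alpl fell, by 0.40 to 0.84 on the log2 scale. Tfap2c, a factor of primordial germ cell specification, had 45.7 and 32.1 CPM in mutants and 39.6 and 25.8 CPM in wild types (log2 -0.56, SE 0.11, adjusted p = 0.00779). Dazl, an RNA-binding protein of germ cells, had 618 and 748 CPM in mutants and 648 and 777 CPM in wild types. Its log2 difference of 0.27 (SE 0.08) missed the threshold at an adjusted p of 0.0648. Ddx4, the germ cell helicase, had 361, 393, 327 and 350 CPM (log2 0.11, adjusted p = 0.497).

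Pluripotency genes gave 1 call of 11 (9.09% lower, against 2.73% of all genes), Sox2. It had 43.6 and 32.7 CPM in mutants and 43.2 and 30.5 CPM in wild types, a log2 difference of -0.46 (SE 0.11, adjusted p = 0.0254). Pou5f1, the central pluripotency factor, had 109, 97.1, 112 and 115 CPM (log2 -0.06, adjusted p = 0.774), and Nanog had 9.07, 7.31, 7.15 and 10.8 CPM (log2 0.17, adjusted p = 0.757).

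Meiosis genes gave 6 rises and 0 falls among 41 tested (14.6% higher, against 1.56% of all genes), and the rises were uneven between the genotypes. The median was 0.47 in the mutant pair and -0.08 in the wild-type pair. Stra8, the gene whose promoter is printed above (chr6:34870163-34889342), had 112 and 191 CPM in mutants and 167 and 190 CPM in wild types, a log2 difference of 0.47 (SE 0.11, adjusted p = 0.0244). Prdm9, the recombination hotspot methyltransferase, had 7.89 and 33.4 CPM in mutants and 14.9 and 18.8 CPM in wild types (log2 1.12, SE 0.26, adjusted p = 0.0258). Mutant replicate 1 was the lowest of the 4 libraries for both.

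The other meiosis genes that rose were Meiob, Sycp2, Tex11 and Gm1564 (Meioc), with log2 differences of 0.56 to 1.76, and mutant pair differences of 0.94 to 2.67 against wild-type pair differences of 0.14 to 0.93. Sycp3, of the synaptonemal complex, had 44.9 and 60.9 CPM in mutants and 73.4 and 37.9 CPM in wild types, up in one and down in the other (log2 -0.28, adjusted p = 0.536). Rec8, the meiotic cohesin, had 176, 186, 195 and 165 CPM (log2 -0.09, adjusted p = 0.679). Meiosis counts over pluripotency counts were 7.22 and 12.1 in mutant replicates 1 and 2 and 9.18 and 8.79 in wild-type replicates 1 and 2, so replicate 2 was higher in the mutant pair and slightly lower in the wild-type pair. Whether the pairs differed was not tested.

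**Figure D4:**
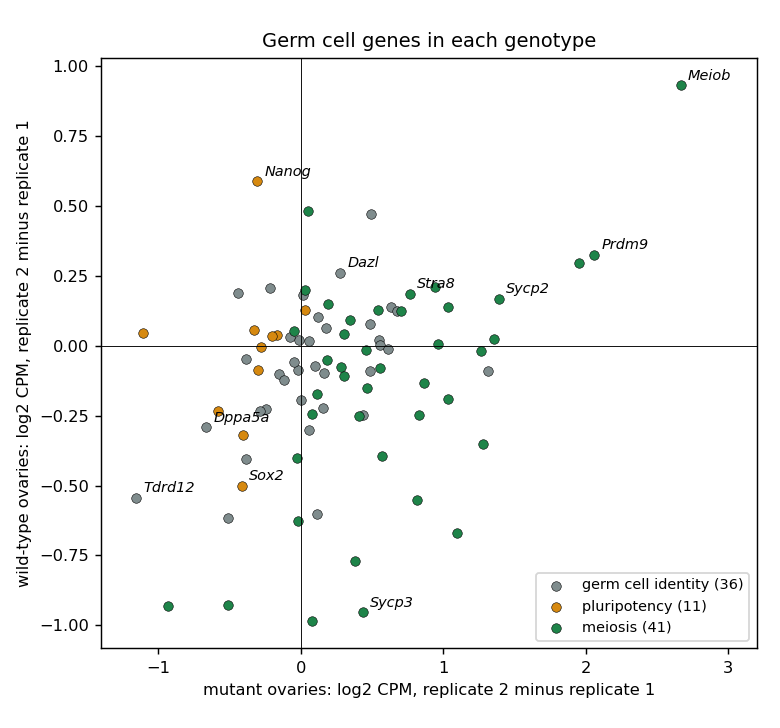
Log2 CPM difference, replicate 2 minus replicate 1, in the mutant pair (x axis) against the wild-type pair (y axis) for 88 germ cell genes of 3 lists. Meiosis genes reach 2.67 on the mutant axis (Meiob) where its wild-type difference is 0.93, Sycp3 lies at -0.95 on the wild-type axis, and pluripotency genes lie mostly left of 0 on the mutant axis.

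Over all genes tested 1.56% were higher and 2.73% lower, and the lists of ovarian somatic cell types are read against these shares. Foxl2, the pre-granulosa factor, had 46.3, 44.1, 28 and 32 CPM (log2 0.06, adjusted p = 0.838), and in its list of 22 genes 1 rose, Gng13, and 1 fell, Runx1 (4.55% each, median 0.01). Wt1, the somatic factor whose elements drive the transgene, had 341, 292, 309 and 309 CPM (log2 -0.11, adjusted p = 0.536). In the Sertoli list of 20 genes Cst9 rose (5%) and Cst8, Gata4 and Sox10 fell (15%, median -0.24). Of these, Sox10 is also on the neural and glial list and Gata4 on the surface epithelium list, so neither is particular to Sertoli cells. Amh, which Sertoli cells secrete, had 3 counts in every library. Of 13 steroidogenic genes Hsd3b6 fell (7.69%, median -0.19), with 6.17 and 1.93 CPM in mutants and 10.5 and 2.95 CPM in wild types, while Star had a log2 difference of 0.15 (adjusted p = 0.727) and Nr5a1, which switches steroid genes on, of -0.25 (adjusted p = 0.107).

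In the surface epithelium list of 24 genes Lgals7 rose (4.17%) and Upk1b, Cdh1 and Gata4 fell (12.5%, median -0.15), against the same 1.56% and 2.73% of all genes. In the mesonephros list of 30 genes Cdh16 rose, from 2.18 to 6.38 CPM in mutants and 0.639 to 3.4 CPM in wild types, and Cdh1 and Clu fell (6.67%, median -0.18), while Pax2, a duct gene, had 11, 10, 22 and 17 counts and was not called. Among 33 DNA replication genes Ccne2 rose (3.03%) and Rrm2 and Chaf1b fell (6.06%, median 0.03). Of 37 mitosis genes Cdc20 and Ube2c fell (5.41%, median -0.13), and Mki67, a proliferation marker, had 557, 399, 479 and 440 CPM (log2 -0.30, adjusted p = 0.0787). Of 36 immediate early genes Klf6 fell (2.78%, near the share of all genes, median -0.09), with Fos at a log2 difference of -0.32 (adjusted p = 0.652), and 0 of 31 hypoxia and glycolysis genes passed in edgeR (median -0.03).

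Long nuclear RNAs fell in 4 of 8 tested (50%, against 2.73% of all genes), with a median of -0.45: Malat1, Neat1, Meg3 and Rian. Meg3 had 347 and 225 CPM in mutants and 310 and 214 CPM in wild types (log2 -0.58, SE 0.08, adjusted p = 0.000419), and Rian, made from the same imprinted region, fell by 0.44 (adjusted p = 0.00423). Malat1 had 638 and 276 CPM in mutants but 375 and 354 CPM in wild types (log2 -0.64, SE 0.17, adjusted p = 0.0423), so nearly all of its difference lay in the mutant pair. The mitochondrial transcript mt-Nd4 had a log2 difference of -0.09. It was the only 1 found in the table of 29 listed mitochondrial gene symbols, some of which are alternative names of the same gene.

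Genes higher in replicate 2 were fewer and moved less, with a median log2 difference of 0.55 against -0.87 for the lower genes. Of the higher genes, 12 of 241 (4.98%) were on any of the fixed lists other than the nuclear RNA, mitochondrial and sex-linked ones. The share was 92 of the 421 lower genes (21.9%) and 4.29% of all genes tested. Because the lists were chosen with earlier results of these data known, the contrast is a description only. Cst12, a cystatin gene beside Cst8 and Cst9 on chromosome 2, had 4.45 and 28.9 CPM in mutants and 4.71 and 29.1 CPM in wild types, the same rise in each (log2 2.66, SE 0.16, adjusted p = 1.12e-07). Lancl3, on the X chromosome, went from 8.17 to 37.4 CPM in mutants and from 6.45 to 31.9 CPM in wild types (log2 2.25, SE 0.14, adjusted p = 1.81e-07). L3mbtl4, a chromatin reader, had 6 and 190 counts in mutants and 9 and 167 counts in wild types (log2 4.32, SE 0.32, adjusted p = 7e-07). Some genes were near absent from replicate 1. Gsdma3, a gasdermin of epithelia, had 0 counts in both replicate 1 libraries and 100 and 40 in mutant and wild-type replicate 2, at least 24.4-fold and at least 13-fold higher against a floor of 3 counts per library, and Cdh12, a neural cadherin, had 4, 121, 11 and 129 counts. Gsdma3 was not called by DESeq2.

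Other genes with the smallest p that rose were Dst, Gatm, Gja1, Col4a6, Dut, Lamtor2 and Zfp951. Gja1, the gap junction connexin of somatic cells, rose from 114 to 175 CPM in mutants and from 143 to 217 CPM in wild types (log2 0.61, SE 0.08, adjusted p = 0.000316). Lars2, the mitochondrial leucyl-tRNA synthetase, had 83 and 199 CPM in mutants and 65.6 and 437 CPM in wild types (log2 2.02, SE 0.22, adjusted p = 4.8e-05). Rn45s, the ribosomal RNA precursor, had 1348 and 2205 CPM in mutants and 1158 and 4349 CPM in wild types (log2 1.31, SE 0.18, adjusted p = 0.000445), the highest in wild-type replicate 2, and DESeq2 called neither of the last 2. Lars2, like Rn45s, was highest in wild-type replicate 2. Rn45s made up 0.116% to 0.429% of the counts, and its part in the other differences, that of Lars2 included, was not tested.

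Part of the ribosomal protein and respiratory chain genes rose. Of 77 ribosomal protein genes, a list chosen after seeing the values, 14 (18.2%) rose and 4 (5.19%) fell, against 1.56% and 2.73% of all genes. The median was 0.06, and members can share reads with pseudogene copies. Rps29 had 300.2 and 470 CPM in mutants and 343 and 559 CPM in wild types (log2 0.68, SE 0.08, adjusted p = 9.24e-05). Rpl29 moved the other way, from 32.6 to 19.3 CPM in mutants and from 34.1 to 17.2 CPM in wild types (log2 -0.87, SE 0.13, adjusted p = 0.000704). Of 79 nuclear genes of the respiratory chain and ATP synthase, chosen in the same way, 14 (17.7%) rose and 0 fell, against the same shares of all genes. Their median was 0.15. Uqcrq, of complex III, rose from 19.6 to 30.4 CPM in mutants and 18.4 to 36.2 CPM in wild types (log2 0.82, SE 0.13, adjusted p = 0.00158).

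These 2 lists held short transcripts, with median lengths of 857.5 and 875 bases. Among the 13379 genes with a known length, the shortest of 10 equal bins had a median log2 difference of 0.04 and 58 calls higher (4.33%) and 50 lower (3.74%), against 9 to 23 higher and 23 to 49 lower in the other bins. Across genes, Spearman's rho of the difference with length was -0.04 and with GC content -0.09, in descriptions over genes that share libraries. With offsets for length and GC content 89 genes were higher and 174 lower, so fewer genes passed, and 261 of those 263 were among the 662.

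**Figure D5:**
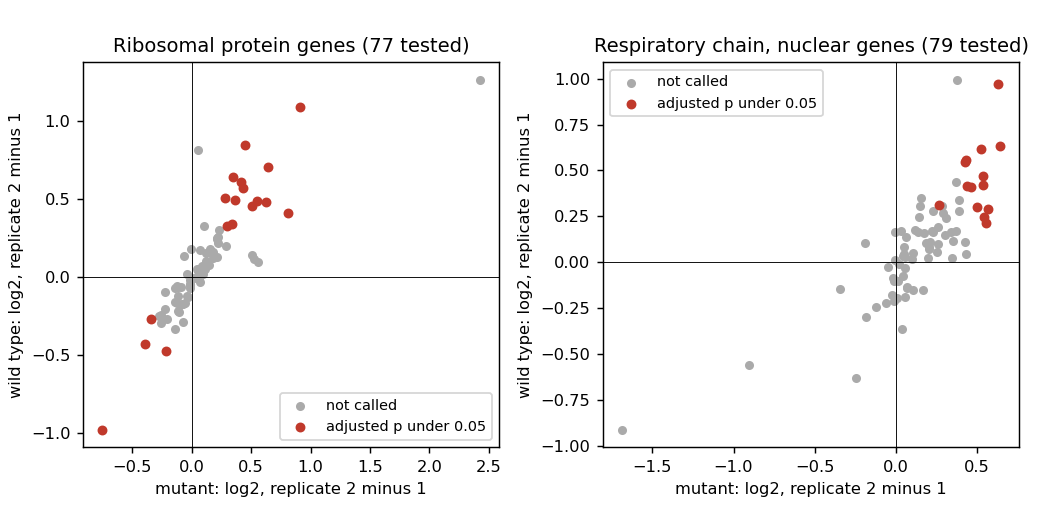
Log2 CPM difference, replicate 2 minus replicate 1, in the mutant pair (x axis) against the wild-type pair (y axis) for 77 ribosomal protein genes (left) and 79 nuclear respiratory chain genes (right), red where the adjusted p was under 0.05. Called points lie in the upper right, except 4 ribosomal protein genes in the lower left.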

How the data were processed

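Total RNA of 4 ovary samples (mutant and wild type, 2 each, E13.5) was extracted with a column kit and sequenced on Illumina HiSeq instruments by the authors. Per the study's methods, the authors mapped reads with STAR 2.6.1d and made the deposited counts per gene with summarizeOverlaps. The submitters' processing notes name the mm9 build and DESeq2. The annotation and the strand setting are not given in the sources used here. The deposited values are whole-number counts, raw and not normalized, with the 4 libraries as columns; total counts per library ran from 11036313 to 17869840, and the intervals implied by a floor of 3 counts cover counting error only.

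Counts were filtered by filterByExpr over the replicate number, scaled by TMM and fitted in edgeR 4.0.16 (R 4.3.3) with the terms genotype and replicate number; the quasi-likelihood test was adjusted over all 15442 genes tested with the Benjamini-Hochberg method, with a threshold of 0.05. SE is the absolute log2 difference over the square root of F. CPM are TMM-scaled, and pair differences are log2 CPM with a prior count of 2. The fit leaves 1 residual degree of freedom, and the spread estimated for each gene was drawn toward a trend over all genes. Summed CPM of a list, and its counts of called members, are descriptions. Gene positions came from GENCODE M1 on NCBIM37, which is mm9, and promoter windows from RefSeq on GRCm38.p6.

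The text names 15 genes per direction, ranked by p among those called, up to 8 called members of each list and direction, and a set of fixed markers; unnamed clones and near-identical copies were not named. Members and lists were chosen with earlier results of these data known, and the ribosomal protein, respiratory chain and trophoblast lists, and the length and GC offsets, after seeing these values. Alternatives were DESeq2 1.42.0, other normalizations (RLE, upper quartile), other filters, thresholds and tests, no genotype block and leaving out each library. Scripts were tested on simulated data. The equal replicate numbers pair samples across the genotypes only by the number, since no label says what it marks.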

Additional observations from a re-analysis of the deposited data

Results flagged for a closer look

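With groups of 2 libraries no sample could be tested as an outlier. The replicate difference had opposite signs in the 2 genotypes for the following values, with 1 library per genotype and number, and in each case the difference was not tested. The meiosis over pluripotency ratio had a log2 difference of 0.75 in the mutant pair and -0.063 in the wild-type pair. Sycp3 had 0.44 in the mutant pair and -0.95 in the wild-type pair. Nanog had -0.31 and 0.59. Gata1 had 0.29 and -0.49 and Ptprc 0.71 and -0.67, both from low counts. Col3a1 had -0.60 and 0.23.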

How the results depend on the processing

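Blood, skeletal muscle and stroma medians kept their negative direction under every alternative run, and every named call lost under an alternative kept its sign. For stroma the direction was slight: the wild-type pair alone had a median of -0.00569, beside -0.000542 for all genes tested. Calls higher and lower were 44 and 81 in DESeq2, 3 and 1 with no genotype block, 89 and 174 with length and GC offsets (chosen after seeing the data), 84 and 189 at the 0.01 threshold, 51 and 200 with a log2 difference of at least 1, and 413 higher at the 0.1 threshold, and no filter gave 156 higher. Programme genes lower (germ cell, blood, muscle, stroma) and germ cell genes higher were 0, 5, 12, 1 and 0 in DESeq2, and 0, 0, 0, 0 and 0 with no genotype block. With the offsets germ cell, blood and stroma genes lower were 1, 11 and 4, with 0 germ cell genes higher. At an adjusted p under 0.01 they were 2, 12 and 3, with 0 higher. At an adjusted p under 0.1, 8 germ cell and 16 stroma genes were lower and 11 germ cell genes higher. With a log2 difference of at least 1, 0 germ cell and 4 stroma genes were lower and 2 germ cell genes higher. Stroma genes lower were 6 and germ cell genes higher 1 with RLE normalization, and 5 and 1 with no filter. Leaving out each library, genes higher ranged from 0 to 21 and lower from 0 to 124, blood genes lower from 0 to 8, muscle from 0 to 25, and germ cell (both directions) and stroma stayed at 0, in fits with fewer samples and no genotype term, where the lone sample is assumed to vary like the others.

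The muscle median was -0.47 with at least 10 counts in every library, which removes the genes that fell to low counts. Leaving out a library leaves the other genotype's pair: medians then ranged from -0.80 to -0.49 for muscle, -0.054 to 0.16 for germ cell genes, -0.066 to 0.056 for identity, -0.31 to 0.033 for pluripotency, -0.076 to 0.47 for meiosis, -0.040 to 0.19 for endothelial, -0.049 to -0.032 for pre-granulosa and -0.14 to 0.078 for hypoxia genes, and the meiosis over pluripotency log2 difference from -0.063 to 0.75. Near 0, signs turned: pre-granulosa -0.00605 in DESeq2, -0.017 with no filter and -0.018 with at least 10 counts, identity -0.00666 with the offsets, Mmp2 0.0010 in DESeq2 and 0.022 with the offsets, and Ptprc 0.0084 in DESeq2. The cause was not tested.

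The Sall1 difference without the replicate block was 2.85, against 2.86 with it, and no other result has a paired form, since the replicate number is the comparison itself. Depth limits genes under 10 counts, of which many muscle and liver genes in replicate 2 are examples.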

Other observations

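A few further genes were picked after their values were seen, and stand for no group. Peg10, an imprinted gene, rose from 494 to 672 CPM in mutants and from 506 to 826 CPM in wild types (log2 0.58, SE 0.08, adjusted p = 0.000816). Igf2, a fetal growth factor, fell from 2305 to 1656 CPM in mutants and from 1878 to 1617 CPM in wild types (log2 -0.35, adjusted p = 0.0312), and Mest and Grb10 fell by 0.43 and 0.33 on the log2 scale.

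H2-K1, a class I gene, had 18.1 and 62.5 CPM in mutants and 30.2 and 43.2 CPM in wild types (log2 1.10, SE 0.20, adjusted p = 0.00428), and H2-D1, its relative, rose by 0.92. Cd74, the class II invariant chain, had 28 and 9 counts in mutants and 79 and 6 counts in wild types and fell by 2.92 on the log2 scale (adjusted p = 0.00141). Glo1, a detoxifying enzyme gene, had 192 and 145 CPM in mutants and 195 and 133 CPM in wild types (log2 -0.48, SE 0.08, adjusted p = 0.00302). H2-K1 and H2-D1 can share reads with each other and with other class I genes.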
